A study of Mus musculus with 12 samples.

Results

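The genes described here are the sensor, adaptor, caspase, cytokine and trigger genes of the inflammasome: Nlrp3, Nlrc4, Pycard, Casp1, Casp4, Casp8, Il18, Il18bp and P2rx7. They were taken by name, as every non-control probe whose gene name on the array is 1 of these 9 symbols, which gave 13 of the 55681 probes and 9 of the 34751 genes on the array. Each of 12 RNA samples was read on its own one-colour Agilent array, with 3 arrays in each of 4 groups. All 12 samples carry the strain label B6C3Fe a/a-Csf1op/J. The WT and op/op groups are cells sorted magnetically for CD11b and CD11c from the kidneys of wild-type mice and of mice homozygous for Csf1op, a mutation that removes functional M-CSF, and every mouse of both groups had received glyoxylate at 80 mg/kg for 6 days. Glyoxylate is the precursor from which the mouse makes oxalate, and its injection is used to form calcium oxalate crystals in the kidney; no kidney group without glyoxylate was analysed here. The M1 and M2 groups are macrophages grown from bone marrow ex vivo and stimulated with LPS and GM-CSF (M1) or IL-4 and M-CSF (M2), and the genotype of their donors is not stated beyond the strain. The labels give no age and do not say whether the 3 samples of a group came from separate animals or cultures, so each p-value covers the scatter among the samples at hand, part or all of which may be technical.

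An inflammasome is a protein platform that a sensor such as NLRP3 builds with the adaptor ASC, the product of Pycard, to activate the protease caspase-1. Caspase-1 cuts the precursors of the cytokines IL-1β and IL-18 into their active forms and cuts gasdermin D, whose fragment opens pores in the cell membrane. Crystals, calcium oxalate among them, are known to activate NLRP3 in phagocytes, where priming by microbial products first raises the RNA of the sensor and of pro-IL-1β. The arrays measured RNA only, so assembly of the complex, cleavage and secretion were not measured.

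Values are log2 signals relative to the 75th percentile of the same array, so a value of 0 means a probe as bright as that percentile, and a difference of 1 is a doubling of signal. Such values depend on the probe and are compared between samples for 1 probe, not between genes. A probe is called detected where the scanner software found its signal well above background, which held for 63.1 to 68.8% of probes on op/op arrays, 76.1 to 79.3% on WT, 72.6 to 75.1% on M1 and 64.4 to 65.1% on M2 arrays. The dimmest detected probe stood between -3.50 and -3.15 on op/op arrays and between -4.61 and -4.06 on WT arrays. Values of arrays of 1 group correlated at 0.955 or more. The kidney arrays varied more around their group means than the marrow arrays (median residual SD of 0.392 against 0.179 on the log2 scale), and the test pooled both into 1 estimate of the spread. WT replicate 1 had a slide to itself, the other 5 kidney arrays shared a slide, and all 6 marrow arrays shared another, so slide and tissue cannot be told apart. WT and M1 lay in 1 row of the slides and op/op and M2 in the other, so position on the slide and group cannot be told apart either. The sorting antigen genes Itgam and Itgax were detected in all 4 groups, but not at like levels. In that test Itgax was lower in op/op than in WT (-1.62, adjusted p = 0.000403), and Itgam did not pass (0.31, adjusted p = 0.216). Itgax was also lower in M1 than in M2 (-4.16, adjusted p = 5.7e-08).

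Macrophages of op/op mice depend on other factors than M-CSF, and the comparison of op/op with WT kidney cells asks how the sorted population differs without it. The RNA of 6 of the 9 genes fell in op/op cells and none rose: Nlrc4 (3.6-fold lower), P2rx7 (2.54-fold), Casp1 (2.33-fold), Nlrp3 (1.74-fold), Casp8 (1.67-fold) and Il18, which was detected on no op/op array. The adaptor Pycard, Casp4 and the IL-18 antagonist Il18bp did not pass the test. In this comparison 59.4% of the 27047 genes tested were called at an adjusted p under 0.05, 28.5% as lower and 30.9% as higher, so a share of 6 in 9 is to be read against that background. Every op/op array lay below every WT array for 5 of the 9, of which Il18 was detected on no op/op array, where the groups did not overlap in either direction for 58.8% of all genes. The median difference of the 9 genes was -0.80, beside 0.16 for all genes tested. Within the slide that held both groups, that is with slide as a term, 6 of 9 genes were called. When only the 6 kidney arrays were fitted, 4 genes were called, since Nlrp3 (adjusted p = 0.0568) and Casp8 (0.0668) no longer passed. In that fit 10148 of all 27047 genes tested were called, and the count of members is to be read beside it.

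**Figure D1:**
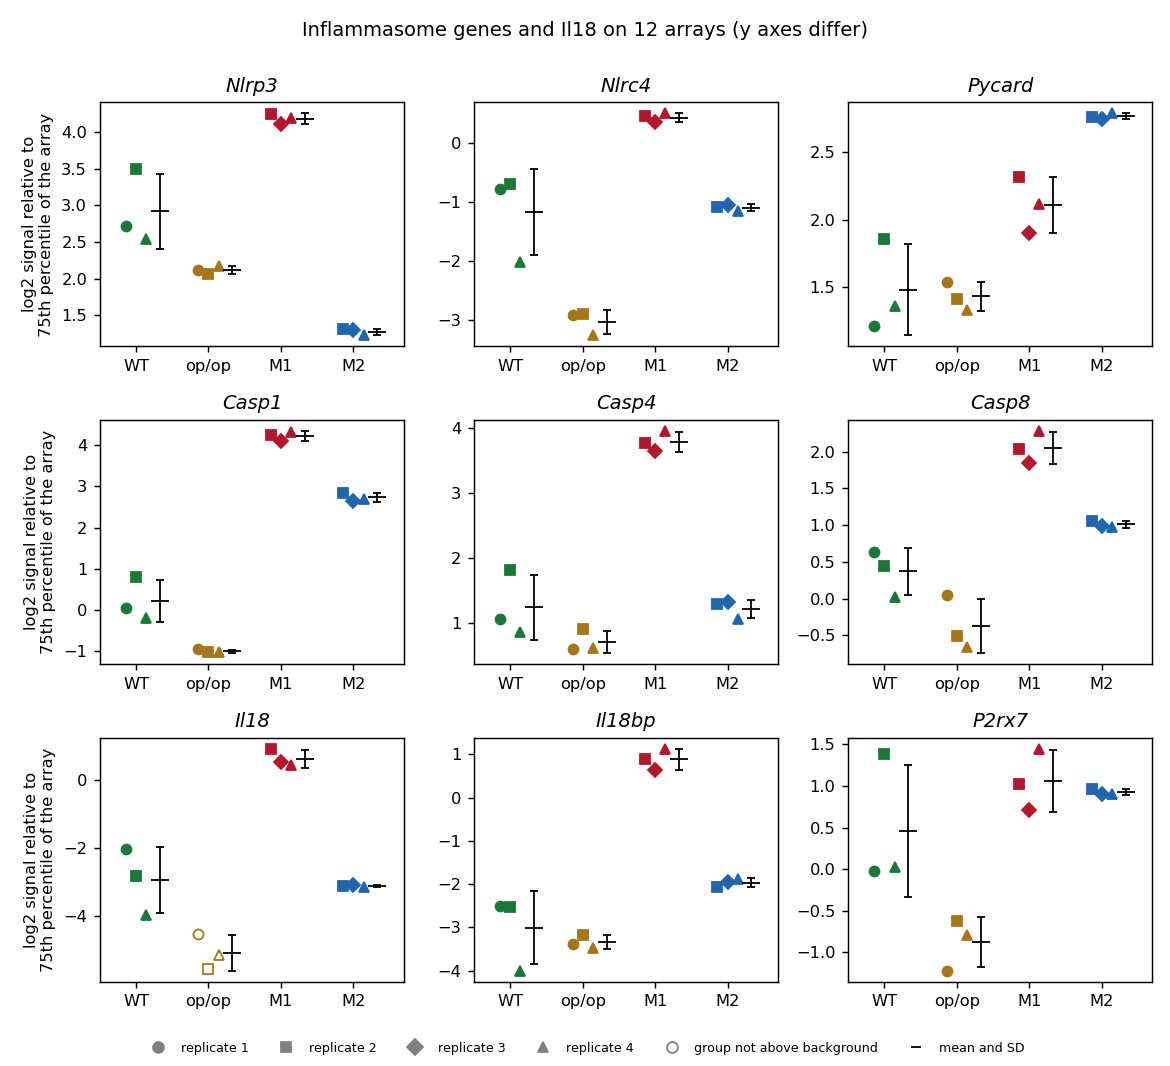
Log2 signal of each of the 9 genes (y axis, relative to the 75th percentile of the array, 1 panel a gene with its own scale) on the 3 arrays of each group (x axis); symbols give the replicate number, open symbols a group without a detected array, and bars the mean and SD. M1 had the highest mean for 8 of the 9 genes, although its P2rx7 arrays overlapped those of M2 and WT; Pycard was highest in M2, and op/op had the lowest mean for 8 of the 9, Nlrp3 being lowest in M2.

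Nlrp3 encodes the sensor that responds to crystals, and its brighter probe lies at chr11:59378554-59378613 (mm9, plus strand). Its sequence and that of the probes for the adaptor, for the cytokine and for the ATP-gated channel are shown because the contrasts below rest on them, 60 bases each, 5′ to 3′ as the array files give them.
Nlrp3 A_52_P650540: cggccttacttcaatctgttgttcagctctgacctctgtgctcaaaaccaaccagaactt
Pycard A_51_P438821: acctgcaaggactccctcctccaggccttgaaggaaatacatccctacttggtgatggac
Il18 A_66_P105046: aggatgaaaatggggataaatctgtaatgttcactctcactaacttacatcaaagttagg
P2rx7 A_51_P506733: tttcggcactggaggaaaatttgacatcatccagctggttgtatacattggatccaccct
P2rx7 A_55_P2183010: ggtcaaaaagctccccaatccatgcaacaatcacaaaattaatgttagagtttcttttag
The Nlrp3 signal on the 3 WT arrays (replicates 1, 2 and 4) was 2.72, 3.49 and 2.54, and on the 3 op/op arrays (replicates 1, 2 and 4) it was 2.12, 2.06 and 2.18. All op/op arrays lay below all WT arrays, and the op/op values spread less (SD 0.06 against 0.51, n = 3 each). The difference was -0.80 ± 0.22 (SE; adjusted p = 0.00961). The other Nlrp3 probe, at chr11:59379981-59380040 (mm9, plus strand), gave 0.40, 1.32 and -0.33 in WT and -0.67, -0.60 and -0.61 in op/op, a difference of -1.09 ± 0.32 (SE; adjusted p = 0.014 over all probes, of which 56.0% were called). Both probes therefore placed op/op below WT on every array.

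Nlrc4 encodes a sensor that works with NAIP proteins to detect bacterial flagellin and secretion systems. Its probe (chr17:74826172-74826231, mm9, minus strand) read -0.79, -0.70 and -2.01 in WT and -2.91, -2.89 and -3.25 in op/op. WT replicate 4 was lower than the other WT arrays but above every op/op array, of which 2 were detected. The difference of -1.85 ± 0.29 (SE; adjusted p = 0.000984) was the largest of the 9 among genes measured in both groups. With the background corrected by the normexp method it was -0.79, smaller than those of Casp1 and P2rx7.

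Pycard, whose product ASC links the sensors to caspase-1, stood at 1.21, 1.86 and 1.36 in WT and at 1.54, 1.41 and 1.33 in op/op (chr7:135136241-135136300, mm9, minus strand). The groups overlapped. The difference was -0.05 ± 0.19 (SE; adjusted p = 0.813), with a 95% interval of -0.47 to 0.36, and its sign turned to 0.14 under cyclic loess scaling and also without WT replicate 2.

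Casp1 encodes the protease that inflammasomes activate. It read 0.06, 0.80 and -0.19 in WT and -0.94, -1.02 and -1.02 in op/op (chr9:5307206-5307265, mm9, plus strand). The op/op arrays agreed closely with each other (SD 0.04) and lay below all WT arrays, with a difference of -1.22 ± 0.22 (SE; adjusted p = 0.0017).

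Casp4, the mouse gene of caspase-11, encodes the protease of the noncanonical pathway, which binds LPS in the cytosol. Its brighter probe (chr9:5336658-5336717, mm9, plus strand) read 1.06, 1.81 and 0.86 in WT and 0.60, 0.90 and 0.61 in op/op. The groups overlapped, and the difference of -0.53 ± 0.23 (SE) did not pass (adjusted p = 0.0636). It passed without WT replicate 4 (-0.73, adjusted p = 0.0173) and under 5 other settings: normexp (adjusted p = 0.0159), array weights (-0.87, 0.0101), the mean of its probes (0.0471), trend and robust moderation (0.0475) and testing only genes detected on all 12 arrays (0.0468). The other Casp4 probe shares 55 of its 60 bases with this one, so it is no independent measurement; it gave -0.58 (adjusted p = 0.0402 over all probes).

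Casp8 encodes the initiator caspase of death receptor signalling, which also restrains necroptosis. Its values were 0.64, 0.44 and 0.02 in WT and 0.05, -0.51 and -0.66 in op/op (chr1:58901601-58901660, mm9, plus strand). Here op/op replicate 1 lay above WT replicate 4, so the groups overlapped. The difference of -0.74 ± 0.22 (SE) passed (adjusted p = 0.0152), but it was -0.60 and missed the threshold without WT replicate 1 (adjusted p = 0.0504) and without op/op replicate 4 (0.0576).

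Il18 encodes the IL-18 precursor, which macrophages and kidney tubule cells are known to make. Its probe, at chr9:50389761-50389820 (mm9, plus strand), read -2.02, -2.82 and -3.95 in WT and was detected on no op/op array, where the measured values were -4.52, -5.56 and -5.14. WT replicates 1 and 2 lay above the dimmest detected signal of each op/op array and WT replicate 4 below it, so the order of WT replicate 4 and the op/op arrays is not established. The fit passed (adjusted p = 0.00201), and the size can be given only as a bound: WT exceeded op/op at least 1.29-fold. This bound is the WT mean over the dimmest detected signal of each op/op array. With normexp the difference was -0.25, less than this bound (0.37 on the log2 scale), and the call was lost (adjusted p = 0.301). The call was also lost when low signals were raised to a floor (-0.60, adjusted p = 0.0775).

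Il18bp encodes a soluble decoy that binds IL-18 and keeps it from its receptor. It read -2.50, -2.54 and -4.00 in WT and -3.38, -3.17 and -3.48 in op/op, where 1 of 3 arrays was detected (chr7:109164100-109164159, mm9, minus strand). WT replicate 4 was lower than all op/op arrays. The difference of -0.33 ± 0.33 (SE) did not pass (adjusted p = 0.395), but it was -0.83 without WT replicate 4 (adjusted p = 0.00304), and its sign turned to 0.09 with normexp.

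P2rx7 encodes an ATP-gated channel of the cell surface whose opening lets potassium leave the cell, a known trigger of NLRP3, and it had 3 probes. The brightest (chr5:123134194-123134253, mm9, plus strand) read -0.02, 1.38 and 0.03 in WT and -1.22, -0.63 and -0.79 in op/op. All op/op arrays lay below all WT arrays, by -1.34 ± 0.34 (SE; adjusted p = 0.00719). A_51_P506733, printed above, spans 2886 bases of the genome with its 60 bases (chr5:123120528-123123413, mm9), so it crosses at least 1 splice junction. It gave -0.37, -0.46 and -1.25 in WT and -2.41, -1.76 and -2.15 in op/op, a difference of -1.42 ± 0.29 (SE; adjusted p = 0.00328 over all probes). Each of the 3 probes is listed under a different P2rx7 transcript. A_55_P2183010, also printed above, lies further 5′ (chr5:123105174-123105233, mm9). It gave -2.13, -2.13 and -2.48 in WT and -3.05, -2.07 and -2.89 in op/op, where 1 of 3 arrays was detected. Those groups overlapped, and the difference of -0.42 ± 0.27 (SE) did not pass (adjusted p = 0.198 over all probes).

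Among the cell type markers, 10 of 12 macrophage genes fell in op/op beside the inflammasome genes, and their summed linear signal ranged from 62.7 to 67.3 on op/op arrays and from 105 to 227 on WT arrays. Adgre1, which encodes F4/80, differed by -2.12 ± 0.36 (SE; adjusted p = 0.00125), while Csf1r, which encodes the M-CSF receptor, did not pass (0.08 ± 0.14). Proximal tubule genes fell as well, 12 of 14, with sums of 25.3 to 70.7 in op/op and 122 to 246 in WT. Of the distal nephron and collecting duct genes 5 of 11 rose and 1 fell, and none of 6 epithelium genes was called. Neutrophil genes rose in 4 of 10 and none fell, where 30.9% of all genes rose. T cell genes rose in 4 of the 6 tested, with sums of 61.6 to 83.5 in op/op and 16.1 to 47.4 in WT. The T cell sum was 13.6 to 16.4 in M1 and 16.6 to 21.0 in M2. Its brightest gene was Cd4, with means of 5.38 in op/op, 4.04 in WT and 3.19 in M1. Cd3g was detected on no array, and Cd28 and Cd3d, detected on 1 op/op array, did not pass. B cell genes rose in 5 of 7 and fell in 1. Within WT, replicate 2, with the highest macrophage sum (227), was the highest WT array for 6 of the 9 genes, and replicate 4, with the lowest (105), was the lowest for 7. Replicate 4 also had the highest T cell sum of the WT arrays (47.4), and replicate 1 the highest proximal tubule sum (246). In the other groups the macrophage sum spanned less, from 62.7 to 67.3 in op/op, 251 to 289 in M1 and 231 to 238 in M2. The order of the 3 arrays within a group was not tested. The op/op replicates 1 and 2, with the highest and the lowest sum, were each the highest op/op array for 4 genes. M1 replicate 4, with the lowest M1 sum (251), was the highest M1 array for 6. The part of these cell types in the differences was not tested. In bulk RNA of sorted cells, fewer cells of a type and less RNA per cell cannot be told apart.

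**Figure D2:**
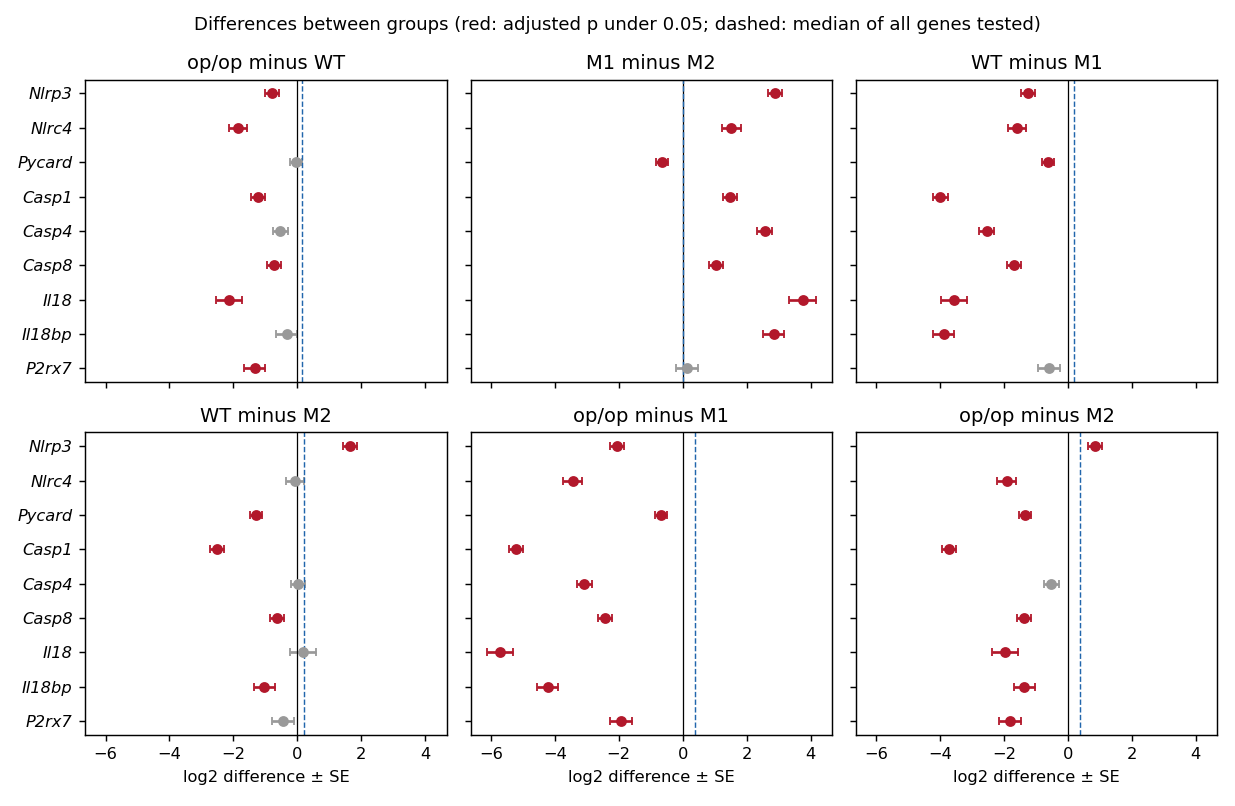
Fitted log2 differences of the 9 genes (x axis, point and SE) in each of the 6 pairwise comparisons, 1 panel a comparison; red marks an adjusted p under 0.05, grey no call, and the dashed line the median of all genes tested. Nlrp3 lies to the right of 0 against M2 in both kidney groups, where most other genes lie to the left.

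The marrow cultures served the study as M1 and M2 controls. In M1 cells 7 of the 9 genes were higher than in M2: Il18 (13.4-fold), Nlrp3 (7.47-fold), Il18bp (7.20-fold), Casp4 (5.90-fold), Nlrc4 (2.86-fold), Casp1 (2.81-fold) and Casp8 (2.06-fold). Pycard was 1.57-fold lower in M1, and P2rx7 did not pass. In this comparison 17.8% of 26166 genes were called, 8.85% as higher in M1 and 8.92% as lower, and the median of the 9 genes was 1.52, beside 0.00 for all genes tested. Every M1 array lay above every M2 array for those 7 genes, as 51.3% of all genes tested had groups that did not overlap in either direction.

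Among the sensors, Nlrp3 stood at 4.24, 4.11 and 4.19 on the 3 M1 arrays (replicates 2, 3 and 4) and at 1.31, 1.30 and 1.23 on the 3 M2 arrays (replicates 2, 3 and 4). The gap of 2.90 ± 0.22 (SE; adjusted p = 2.47e-06) was many times the spread within either group (SD 0.07 and 0.04). The other Nlrp3 probe gave nearly the same gap, 2.94. Nlrc4 read 0.44, 0.34 and 0.49 in M1 and -1.08, -1.05 and -1.16 in M2, a difference of 1.52 ± 0.29 (SE; adjusted p = 0.00324).

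Pycard was the member that went the other way, with 2.32, 1.90 and 2.12 in M1 and 2.76, 2.75 and 2.79 in M2. The groups did not overlap, and the difference was -0.65 ± 0.19 (SE; adjusted p = 0.0332). That call was lost without M1 replicate 3 (-0.55, adjusted p = 0.142), without M1 replicate 4 (-0.65, adjusted p = 0.094) and without any 1 of the M2 replicates (-0.66 to -0.64, adjusted p of 0.0905 to 0.0967).

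The 3 caspases were all higher in M1. Casp1 read 4.25, 4.09 and 4.32 in M1 and 2.84, 2.64 and 2.70 in M2, a difference of 1.49 ± 0.22 (SE; adjusted p = 0.000588). Casp4 read 3.76, 3.65 and 3.95 in M1 and 1.29, 1.33 and 1.06 in M2, and its difference of 2.56 ± 0.23 (SE; adjusted p = 1.17e-05) was the widest of the caspases. Casp8 read 2.03, 1.84 and 2.28 in M1 and 1.06, 0.99 and 0.97 in M2, a difference of 1.04 ± 0.22 (SE; adjusted p = 0.00646).

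The cytokine and its decoy were both high in M1. Il18 read 0.93, 0.54 and 0.44 in M1 and -3.11, -3.09 and -3.14 in M2, a difference of 3.75 ± 0.41 (SE; adjusted p = 5.01e-05) and the widest of the 9, although with normexp it was 2.56 and below that of Nlrp3. Il18bp read 0.88, 0.63 and 1.12 in M1 and -2.08, -1.96 and -1.88 in M2, a difference of 2.85 ± 0.33 (SE; adjusted p = 9.7e-05). P2rx7, by contrast, overlapped between the cultures on its brightest probe, with 1.03, 0.71 and 1.45 in M1 and 0.97, 0.91 and 0.90 in M2. Its difference was 0.14 ± 0.34 (SE; adjusted p = 0.86), with a 95% interval of -0.61 to 0.88.

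Against M1, the WT kidney cells were lower for 8 of the 9 genes, where 59.4% of 27937 genes were called and 25.5% were called lower in WT. The widest differences were in Casp1 (15.9-fold), Il18bp (14.8-fold), Il18 (11.9-fold) and Casp4 (5.83-fold), followed by Casp8 (3.21-fold), Nlrc4 (3.01-fold), Nlrp3 (2.40-fold) and Pycard (1.55-fold). With normexp the log2 difference of Il18 was -2.25 in place of -3.57 and that of Il18bp -2.83 in place of -3.89. The Pycard call (adjusted p = 0.0128) was lost under quantile scaling (-0.37, adjusted p = 0.103), among other settings, and without M1 replicate 2 (-0.53, adjusted p = 0.0602). P2rx7 did not pass (-0.60 ± 0.34, SE; adjusted p = 0.148), and it passed at -1.06 without WT replicate 2 (adjusted p = 0.0036). Slide and tissue cannot be told apart here, nor in the comparisons below. The proximal tubule sum was 122 to 246 in WT, 1.94 to 2.04 in M1 and 3.36 to 4.02 in M2. The macrophage sum was 105 to 227 in WT and 251 to 289 in M1, and the fibroblast sum 6.47 to 9.03 and 81.4 to 114. The part of these cell types in the differences was not tested, here or in the comparisons below.

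Against M2, the WT kidney cells stood on both sides, and 64.6% of 27137 genes were called, 36.6% as higher in WT and 28.0% as lower. Nlrp3 was the only member called higher in WT, by 1.64 ± 0.22 (SE; 3.11-fold, adjusted p = 6.88e-05), and its other probe gave 1.88. Casp1 (-2.50 ± 0.22, SE), Pycard (-1.29 ± 0.19), Il18bp (-1.04 ± 0.33) and Casp8 (-0.64 ± 0.22) were called lower in WT. Casp8 missed the threshold without WT replicate 4 (-0.47, adjusted p = 0.0938), without any 1 of the M2 replicates (adjusted p of 0.0529 to 0.0662) and under quantile and cyclic loess scaling (-0.58 and -0.48). The other 4 did not pass, with Il18 at 0.18 ± 0.41 (95% interval -0.71 to 1.07), Casp4 at 0.02 ± 0.23, Nlrc4 at -0.07 ± 0.29 and P2rx7 at -0.46 ± 0.34. Without WT replicate 2, P2rx7 passed at -0.92 (adjusted p = 0.00713). With slide as a random block, 3 members were called in place of 5.

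By the brightest probe of each gene, the op/op kidney cells were lower than M1 for all 9 genes. In this comparison 81.7% of 27158 genes were called, 35.5% as lower in op/op. The P2rx7 probes disagreed in direction. The brightest gave -1.94 and A_51_P506733 gave -1.55, but A_55_P2183010, detected on 1 op/op array, was 0.69 higher in op/op (adjusted p = 0.0366 over all probes). With the mean of its probes P2rx7 differed by -0.93. Casp1 differed 37.1-fold, Il18bp 18.6-fold and Nlrc4 10.8-fold, and M1 exceeded op/op at least 15.3-fold for Il18. With normexp the log2 differences were narrower, at -2.74 in place of -4.22 for Il18bp, -2.03 in place of -3.44 for Nlrc4 and -2.50 for Il18, below that bound. Pycard, the narrowest (-0.69 ± 0.19, SE; adjusted p = 0.00516), missed the threshold under quantile (-0.41) and cyclic loess scaling (-0.27). Against M2, 7 of the 9 genes were lower in op/op and 1, Nlrp3, was higher (0.84 ± 0.22, SE; adjusted p = 0.00326), where 83.5% of 25724 genes were called, 47.1% as higher and 36.4% as lower. Casp1 again differed most (13.2-fold), and Il18 differed at least 1.14-fold, a call that normexp ended with the sign turned (0.06) and that a floor on low signals also ended (-0.21). The Il18bp call was lost with normexp too (-0.37, adjusted p = 0.0807). Casp4 (-0.52 ± 0.23, SE; adjusted p = 0.0541) did not pass, although it passed without WT replicate 2 (adjusted p = 0.0114), WT replicate 4 (0.0338) or op/op replicate 2 (0.047). Nlrp3 relative to the median of all genes in this comparison (0.38) was 0.46 higher in op/op, and with slide as a random block it did not pass (0.78, adjusted p = 0.0535). The comparisons of op/op and WT with the same marrow arrays share those arrays.

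Put in order of their 4 group means, the 9 genes fell into a few patterns. Nlrp3 ran from M1 to WT, op/op and M2, and each neighbouring pair differed. Casp1 ran from M1 to M2, WT and op/op, with each neighbouring pair apart as well, by 1.49, 2.50 and 1.22. Casp8 had the same order with smaller steps (1.04, 0.64 and 0.74). Nlrc4 had that order too, but the step from M2 to WT did not pass (0.07, adjusted p = 0.841). Il18 and Casp4 were highest in M1, and below it the step between WT and M2 did not pass. Il18bp stepped down from M1 to M2 and WT, and the step to op/op did not pass. Pycard was highest in M2 and then M1, and the step between the kidney groups did not pass. For P2rx7 the only step that passed was the last, from WT to op/op.

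The 3 P2rx7 probes differed in their spacing across the arrays, a pattern noticed in these data, so the gaps are given here as a description only. The gap between A_51_P506733 and A_55_P2183010 on the same array was 1.06 ± 0.59 (SD, n = 6) in kidney and 2.95 ± 0.27 (SD, n = 6) in marrow, and the kidney gap was 0.56 ± 0.23 in op/op and 1.55 ± 0.28 in WT (SD, n = 3 each). The brightest probe against A_55_P2183010 gave 2.25 ± 0.71 and 4.45 ± 0.18 (SD, n = 6 each). Between the brightest probe and A_51_P506733 the gap was 1.19 ± 0.49 in kidney and 1.5 ± 0.18 in marrow (SD, n = 6 each). In the fit, A_55_P2183010 was 1.11 ± 0.27 (SE) higher in WT than in M1 (adjusted p = 0.00476 over all probes) and 1.31 ± 0.27 higher than in M2 (adjusted p = 0.00154), while the other P2rx7 probes did not pass in either comparison. These p-values come from the same arrays in which the pattern was noticed, so they are no independent test of it. A_55_P2183010 was detected on 1 of 3 op/op arrays and on 2 of 3 M2 arrays, so the op/op gaps to it rest on signals near background, and slide and tissue cannot be told apart.

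**Figure D3:**
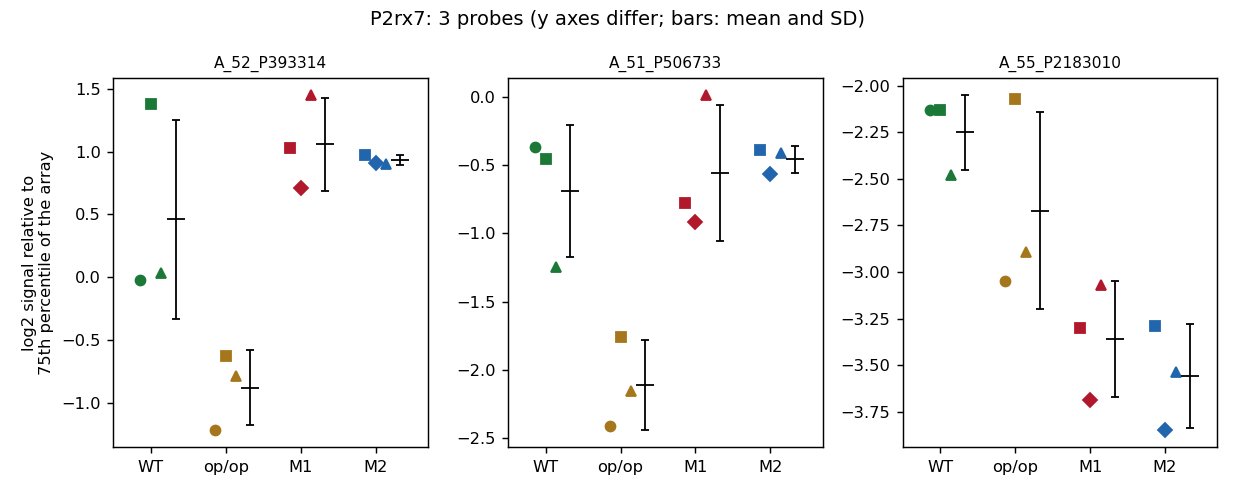
Log2 signal of the 3 P2rx7 probes (y axis, relative to the 75th percentile of the array, 1 panel a probe with its own scale) on the arrays of each group (x axis), with mean and SD. The left and middle probes place WT near both marrow groups and op/op below them, and the right probe, A_55_P2183010, places WT above the marrow groups; it was detected on 1 op/op array.

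Around these 9 genes, 51 other genes of the pathway were followed in 4 classes. In op/op against WT, 49 of them were tested, of which 24 fell and 7 rose, with a median difference of -0.78. Over all genes tested 28.5% fell and 30.9% rose, with a median of 0.16, and the classes below are to be read beside these shares. The 7 that rose include Nlrp10, which was detected on no op/op array. Among the sensors 5 of 13 fell and 3 rose. Nod2, a cytosolic sensor of bacterial peptidoglycan, read -1.11, -1.04 and -0.85 in WT and -3.00, -2.29 and -2.35 in op/op (-1.55 ± 0.21, SE; adjusted p = 0.000583). Naip6, a flagellin receptor that works with NLRC4, differed by -2.19 ± 0.30 (SE; adjusted p = 0.000586), and 2 op/op arrays detected it. Aim2, a sensor of cytosolic DNA, differed by -1.20 ± 0.19 (SE; adjusted p = 0.000944). These 3 had no overlap between the groups. With normexp Nod2 differed by -0.74 and Naip6 by -1.05.

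Of the priming and activation genes 6 of 12 fell in op/op and 1 rose. Ctsb, which encodes the lysosomal protease cathepsin B, read 5.60, 6.38 and 5.04 in WT and 3.68, 3.96 and 3.93 in op/op (-1.82 ± 0.27, SE; adjusted p = 0.000792). Irf1, an interferon-induced transcription factor, differed by -1.15 ± 0.17 (SE), and Myd88, the adaptor of Toll-like and IL-1 family receptors, by -0.93 ± 0.16 (SE). Of the caspase and cell death genes 10 of 14 fell and 2 rose. Cflar, the inhibitor of caspase-8 activation, differed by -1.40 ± 0.20 (SE; adjusted p = 0.000664) and Ninj1, which ruptures the membrane of dying cells, by -1.31 ± 0.20 (SE; adjusted p = 0.00083). Ripk3, the kinase of necroptosis, was detected on no op/op array and was at least 1.89-fold higher in WT, although with normexp it differed by -0.37, less than this bound. Gsdmd, the gasdermin that caspase-1 cuts, was picked after its values were seen; it read 1.76, 2.12 and 0.81 in WT and 0.23, 0.40 and 0.37 in op/op (-1.23 ± 0.27, SE; adjusted p = 0.00395).

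Of the cytokine and receptor genes 3 of 10 fell in op/op, near the 28.5% of all genes, and 1 rose. Il1b, the other substrate of caspase-1 among cytokines, read 5.79, 5.86 and 5.24 in WT and 4.20, 4.48 and 4.55 in op/op (-1.22 ± 0.21, SE; adjusted p = 0.00139). Il1a was at least 3.16-fold higher in WT and was detected on no op/op array, but with normexp it differed by -0.85, less than this bound, and without WT replicate 4 by -4.00. Il18r1, the chain of the IL-18 receptor that binds the cytokine, was the 1 that rose, from -3.63, -3.18 and -3.53 in WT to -2.06, -2.23 and -2.16 in op/op (1.30 ± 0.24, SE; 2.46-fold, adjusted p = 0.00177). T cells and NK cells are known to carry this receptor. Il18rap, also in the cytokine and receptor class, did not rise (-0.50, adjusted p = 0.0843) and was detected on 2 op/op arrays. Of the 4 NK cell genes tested, 2 (Prf1 and Gzma) rose and none fell, where 30.9% of all genes rose. Klrk1, Gzmb and Eomes were detected on no op/op array, and Ncr1 and Klrb1c on 1 each. The NK cell sum ranged from 17.3 to 23.6 in op/op and from 11.0 to 11.5 in WT. Its brightest gene was Prf1, with means of 4.10 in op/op and 3.29 in WT. The T cell sum is given above. The part of these cells in the rise of Il18r1 was not tested. With normexp the rise was 0.65. In the marrow cultures Il18r1 was detected on no array.

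In M1 against M2, 48 pathway genes were tested, of which 18 were higher in M1 and 2 lower, with a median of 0.55, beside 8.85% higher and 8.92% lower over all genes. The sensors Mefv, which encodes pyrin, and Nod2 were higher in M1 by 3.88 ± 0.18 and 3.33 ± 0.21 (log2, SE), or by 2.77 for Mefv with the mean of its probes and 2.48 for Nod2 with normexp. Gbp2, an interferon-induced GTPase that acts on LPS from bacteria, was 35.2-fold higher, with 4.09, 3.95 and 4.15 in M1 and -0.98, -0.95 and -1.29 in M2, and Myd88 was 2.63-fold higher. Birc3, an inhibitor of apoptosis, and Cflar were 7.5-fold and 7.11-fold higher. Il1b was 266-fold higher, with 6.16, 6.07 and 5.97 in M1 and -2.12, -2.20 and -1.65 in M2, and its receptor antagonist Il1rn 47.5-fold. With normexp the log2 difference of Il1b was 7.40 in place of 8.05. All of these passed at adjusted p-values of 7.49e-05 or less.

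**Figure D4:**
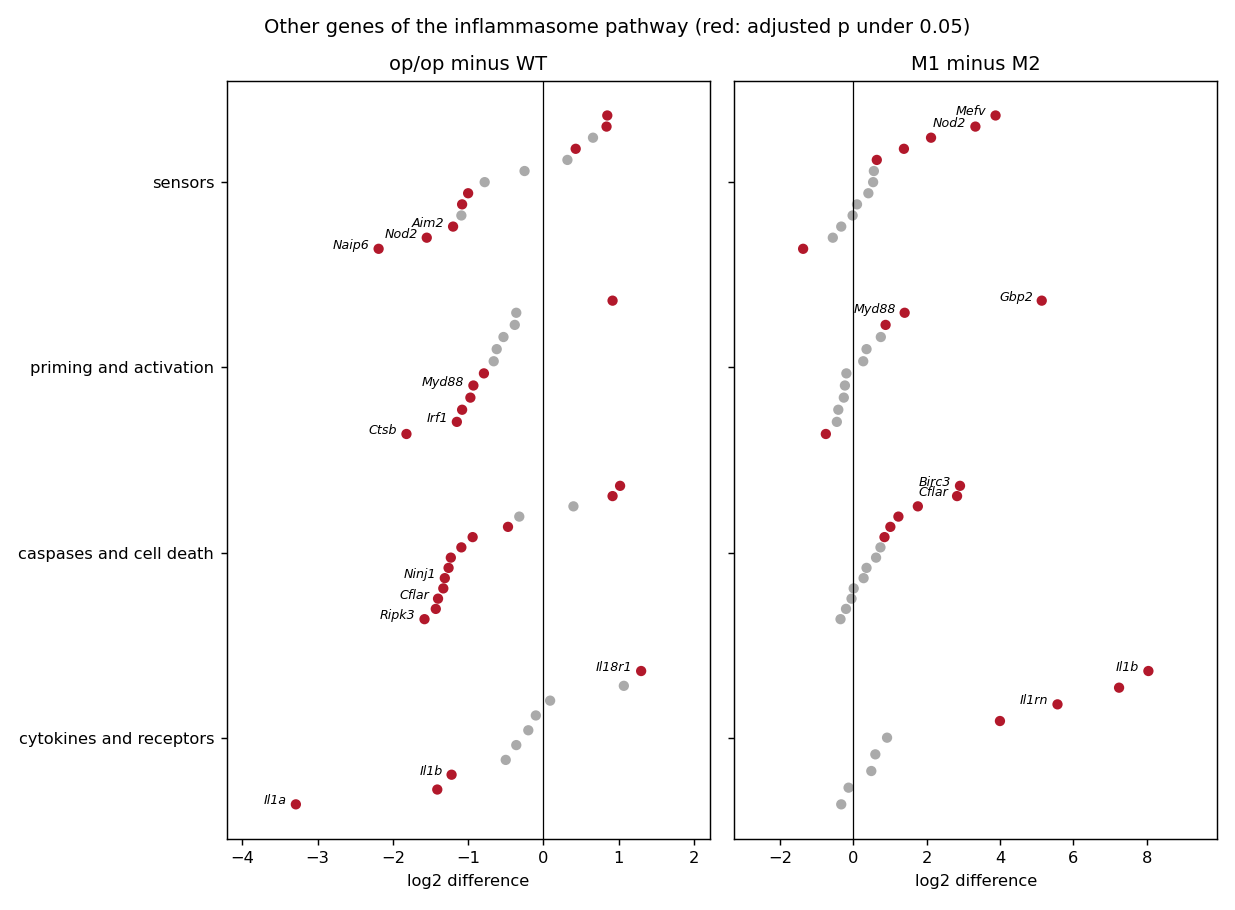
Fitted log2 difference (x axis) of each of the other pathway genes that were tested, ordered within its class (y axis), in op/op minus WT (left) and M1 minus M2 (right); red marks an adjusted p under 0.05 and named points are those described in the text. On the left 24 points in red lie below 0 and 7 above, and on the right 2 below and 18 above.

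The promoters were read because most of the 9 genes moved together between M1 and M2. All 9 matched the RefSeq table (GRCm38.p6), and the 250 bases before the most 5′ start were searched on both strands for 5 motifs picked after the promoters had been seen: NF-kB (GGNNTTTCC), IRF (AANNGAAA), ETS (AGGAAGT), AP-1 (TGANTCA) and STAT (TTCNNNGAA). Casp4 and Nlrp3 are shown as the members with NF-kB matches and Il18 as the widest in M1 against M2, with matches in capitals, 5′ to 3′ on the strand of the gene, each of which is the plus strand.
Casp4 chr9:5308599-5308848: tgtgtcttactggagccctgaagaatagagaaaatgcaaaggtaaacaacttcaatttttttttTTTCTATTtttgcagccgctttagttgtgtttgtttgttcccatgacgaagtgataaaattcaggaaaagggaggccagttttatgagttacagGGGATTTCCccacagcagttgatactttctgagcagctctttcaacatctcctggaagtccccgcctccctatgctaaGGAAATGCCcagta
Nlrp3 chr11:59541319-59541568: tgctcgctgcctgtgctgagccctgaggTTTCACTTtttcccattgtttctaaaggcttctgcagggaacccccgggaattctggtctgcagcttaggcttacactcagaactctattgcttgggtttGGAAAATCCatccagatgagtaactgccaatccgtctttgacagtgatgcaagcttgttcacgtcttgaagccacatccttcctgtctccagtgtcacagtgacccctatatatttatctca
Il18 chr9:50554450-50554699: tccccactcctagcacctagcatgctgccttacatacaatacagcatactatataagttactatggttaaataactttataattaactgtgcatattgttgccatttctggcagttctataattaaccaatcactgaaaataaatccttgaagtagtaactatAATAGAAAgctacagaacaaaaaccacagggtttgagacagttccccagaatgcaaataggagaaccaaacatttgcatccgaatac
Casp4 held an IRF match and 2 NF-kB matches, at -92 to -84 and at -14 to -6 from the start. Nlrp3 held an IRF match and an NF-kB match at -122 to -114, so 2 of the 9 members held the NF-kB letters, beside 4.82% of 27025 promoters. IRF matches stood in 6 of the 9 promoters (Casp4, Casp8, Il18, Nlrp3, P2rx7 and Pycard) and in 21.6% of all, among them Pycard and P2rx7, which were not higher in M1. ETS matches stood in Nlrc4 and Pycard (7.77% of all), an AP-1 match in P2rx7 (6.85%), and a STAT match in none of the 9 (7.14%). No match overlapped another. A match is a run of letters and not a bound site.

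The genes whose patterns lay nearest were found by the mean absolute difference of centred log2 values over the 12 arrays, among 16540 named genes. Nearest to Nlrp3 were Limd2 (0.13), Clec12a, a C-type lectin (0.20), and Ifi203, of the interferon-inducible Ifi200 family (0.21). Limd2 kept the order of Nlrp3, with means of 5.63 in M1, 4.32 in WT, 3.55 in op/op and 2.87 in M2. Nearest to Casp1 were Ahrr (0.25), Lgals3bp (0.28) and Adgre1, the F4/80 gene (0.29), and Adgre1 averaged 5.72 in M1, 4.44 in M2, 2.34 in WT and 0.22 in op/op. Nearest to Il18 were Ebi3, a chain of IL-27 (0.30), the GTPase gene Irgm1 (0.34) and Ms4a6c (0.34). Near to P2rx7 were Taok3 (0.18) and Cpeb2 (0.19). Clec12a averaged below the dimmest detected signal in WT, op/op and M2, and Ahrr did so in op/op, so their distances rest in part on values not above background. These distances are descriptions over 12 arrays that share slides and groups.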

How the data were processed

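Each sample was read on 1 Agilent array (Cy3), scanned and extracted with Agilent Feature Extraction 10.7.3.1, per the submitters' processing notes, with probe positions on mm9, per the file headers. The deposited scanner files hold spot intensity and quality flags (an other column: well above background, outlier). The deposited value table of the authors holds log2 values, and matched log2 of the processed signal minus the 75th percentile (r = 1 on every array). That scale was used here, with the brightest probe per gene. Flagged probes (30) were left out, 34751 genes were named through RefSeq accessions, symbols or the file, and a comparison tested the genes detected, by the software's well-above-background flag, on all 3 arrays of either group. limma 3.58.1 in R 4.3.3 (lmFit, eBayes) was fitted on all 12 arrays in 4 groups, with Benjamini-Hochberg adjustment within each comparison and a call at adjusted p under 0.05. The procedure was tested on simulated data. No spot of the arrays was saturated.

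Members and gene lists were chosen with earlier results of these data known. Named besides the 9 members are, from each pathway class, the 3 genes with the smallest p in op/op against WT and the 2 in M1 against M2, and the 3 nearest in pattern to Nlrp3, Casp1, Il18 and P2rx7, without clone, predicted or accession names; 1 gene near P2rx7 is not reported here. Alternatives were normexp (offset 50), quantile, cyclic loess and median scaling, the deposited table, other filters, a floor at the 10th percentile of signals above background, other uses of probes, only the groups compared, trend and robust eBayes, array weights, slide, replicate block, a 2-fold threshold and leaving out each array. The number of arrays limits the precision.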

Additional observations from a re-analysis of the deposited data

How the results depend on the processing

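Over all alternatives other than leaving out an array, 800 of the members' values kept direction and call, 27 lost the call, 13 gained it and 15 changed sign. The named pathway genes kept both, except that Myd88 in op/op against WT (-0.93) fell short of 2-fold. Leaving out 1 array at a time moved Pycard in op/op minus WT between -0.19 and 0.14, P2rx7 in M1 minus M2 between -0.06 and 0.31, and in WT minus M2 Nlrc4 between -0.31 and 0.35, Casp4 between -0.27 and 0.21 and Il18 between -0.27 and 0.69. It gave 5 to 8 called members in op/op against WT, 7 to 8 in M1 against M2, 7 to 9 in WT against M1, 4 to 6 in WT against M2, 9 in op/op against M1 and 8 to 9 in op/op against M2, and 27 to 36 and 17 to 22 pathway genes in the first comparisons. With genes above background on all 12 arrays only, 5 members were called in M1 against M2 and 5 in WT against M1, since 6 were tested. The random slide block left 3 in WT against M2, and requiring 2-fold left 20 pathway genes in op/op against WT.

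Differences that did not pass changed sign as follows. Pycard in op/op minus WT was 0.14 under cyclic loess and Il18bp was 0.09 with normexp. P2rx7 in WT minus M1 was 0.13 with the mean of its probes and 0.01 with array weights. In WT minus M2, Nlrc4 was 0.02 with normexp and 0.17 with array weights; Casp4 was -0.01 with normexp and with median centring and 0.00 with the slide block; Il18 was -0.29 under quantile and under cyclic loess scaling; P2rx7 was 0.20 with the mean of its probes and 0.11 with array weights. Of called values, Il18 in op/op minus M2 was 0.06 with normexp. The causes were not tested.

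Counts over all genes differed most when only the groups compared were fitted (op/op against WT 10148 in place of 16078, M1 against M2 9686 in place of 4650), with array weights (10357 in M1 against M2) and at 2-fold (7085, 2823, 10572 and 11070 in op/op against WT, M1 against M2, WT against M1 and WT against M2). The median of all genes in op/op minus M1 was 0.38, and 0.08 under quantile scaling.

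Replicate numbers did not pair the samples: same-numbered samples of WT and op/op correlated at -0.09 to 0.10 and of M1 and M2 at -0.03 to 0.08. With the replicate block, 6 members were called in op/op against WT and 7 in M1 against M2, where Pycard (-0.65) reached an adjusted p of 0.0583, Il18 in WT minus M2 was -0.20, and 19 pathway genes were called in M1 against M2.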
